A study of Homo sapiens with 2 samples.

Results

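The 6 mature miRNAs hsa-miR-21-5p, hsa-miR-21-3p, hsa-miR-221-3p, hsa-miR-221-5p, hsa-miR-222-3p and hsa-miR-222-5p (the prefix hsa, for human, is left out below), both arms of the hairpins of miR-21, miR-221 and miR-222, were read by name among the 2549 human miRNAs of an Agilent one-colour array. RNA came from exosomes, small vesicles released by cells, of the human line FaDu, derived from a squamous carcinoma of the hypopharynx. There was 1 array for cells that received a negative control plasmid (oe-NC) and 1 array for cells that received a plasmid for overexpression of the long noncoding RNA HOTTIP (oe-HOTTIP). Each array received 200 ng of RNA. The labels give a plasmid lentivirus as the vehicle and the methods a lipofected plasmid, and neither says whether the cells were a clone or how many cultures were pooled. The methods describe the isolation of exosomes for macrophage cultures and not separately for FaDu, and HOTTIP itself is no target of a miRNA array, so its overexpression was not checked here. The comparison asked which exosomal miRNAs differ when FaDu cells overexpress HOTTIP. With 1 array per group no difference has a replicate check, so no p-value was computed and every SD below is taken over repeated spots of a probe within 1 array.

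For each array the title and the treatment give one group, whereas the description gives the opposite one. Titles were followed here, in the terms oe-NC-labelled array and oe-HOTTIP-labelled array. Every direction would reverse under the descriptions.

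miR-21 is among the most studied miRNAs of carcinomas and is known to repress the tumour suppressor mRNA PDCD4. miR-221 and miR-222 come from neighbouring hairpins and are known to repress the cell cycle inhibitor CDKN1B (p27). A miRNA finds its target mRNAs mainly through its seed, bases 2 to 8 from the 5′ end, and of the arms of a hairpin one usually accumulates as the guide strand while the other is mostly degraded. miR-21-5p, miR-221-3p and miR-222-3p are the usual guide strands.

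RefSeq's miRNA table (GRCh38.p14) held the mature sequence of 4 of the 6 members and that of miR-590-5p, which shares a seed with a member. They are shown, 5′ to 3′ with the seed in capitals, because the seeds divide them into families. miR-21-3p and miR-221-5p are named only.
miR-21-5p: uAGCUUAUcagacugauguuga
miR-590-5p: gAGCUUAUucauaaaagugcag
miR-221-3p: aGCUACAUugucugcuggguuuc
miR-222-3p: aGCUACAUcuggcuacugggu
miR-222-5p: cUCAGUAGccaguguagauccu

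miR-21-5p shared its seed with miR-590-5p, which was detected on neither array. miR-221-3p and miR-222-3p shared theirs with each other and with no other of the 2248 miRNAs of the array that the table holds, and miR-222-5p shared its seed with none. From the 5′ end miR-221-3p (23 bases) and miR-222-3p (21 bases) had the same first 8 bases, and 11 of the 21 positions compared without gaps held the same base.

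The hairpins are shown, 5′ to 3′, with the mature arms that the table lists in capitals, to place the arms in their precursors.
MIR21: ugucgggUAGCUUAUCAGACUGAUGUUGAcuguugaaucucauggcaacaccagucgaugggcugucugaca
MIR221: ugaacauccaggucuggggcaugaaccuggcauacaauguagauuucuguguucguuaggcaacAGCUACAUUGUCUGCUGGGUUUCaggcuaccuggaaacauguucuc
MIR222: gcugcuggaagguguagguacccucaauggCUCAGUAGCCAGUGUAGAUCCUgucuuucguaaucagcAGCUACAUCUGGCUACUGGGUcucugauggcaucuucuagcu

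In GRCh38.p14 MIR21 lies at chr17:59841266-59841337 on the plus strand, within the span of the protein-coding gene VMP1. MIR221 lies at chrX:45746157-45746266 and MIR222 at chrX:45747015-45747124, both on the minus strand, with 748 bases between them. Both lie within the span of the long noncoding RNA gene MIR222HG. The table used gives gene spans, so exons and introns were not told apart.

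Both arrays lay on 1 slide. The scanner software marked 328 miRNAs as detected on the oe-NC-labelled array and 390 on the oe-HOTTIP-labelled array, and 261 of them were detected on both. No spot was saturated. The negative control spots had an intensity of 3.87 ± 2.37 (SD, 976 spots) on the oe-NC-labelled array and of 3.45 ± 2.21 (SD, 975 spots) on the oe-HOTTIP-labelled array. Of the miRNAs of squamous epithelium fixed as markers, 4 of 5 were detected on both arrays, including miR-205-5p, and miR-203a-3p was detected on neither. Their summed intensity before scaling was 514 on the oe-NC-labelled array and 618 on the oe-HOTTIP-labelled array. Of the miRNAs of blood cells, also 4 of 5 were detected on both arrays, with summed intensities before scaling of 2277 and 2609, of which the red cell miRNA miR-451a made up 2233 and 2552. As multiples of each array's 90th percentile, the scale used below, these sums ran the other way, at 1.84 and 1.41 for the epithelial list and at 8.14 and 5.94 for the blood list. Of the white blood cell miRNAs in the blood list, miR-223-3p was detected on both arrays, at 9.53 and 24.1 before scaling, and miR-142-3p on neither. The neuronal miR-124-3p and miR-9-5p were also detected on neither array. Of 3 muscle miRNAs, miR-133a-3p was detected only on the oe-NC-labelled array and miR-206 only on the oe-HOTTIP-labelled array, with unscaled summed intensities over the list of 7.74 and 14.6, and the liver miRNA miR-122-5p gave 8.99 and 14.8 before scaling. The part of RNA from other cells or from culture serum in the values below was not tested.

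The members divided by arm and hairpin. miR-21-5p was bright on both arrays and its difference was within the spread over spots. miR-21-3p was dim on both. miR-221-3p was detected only on the oe-HOTTIP-labelled array and miR-222-3p only on the oe-NC-labelled array, both near the negative control spots, and miR-221-5p and miR-222-5p were detected on neither array. Thus 2 members had a measured difference, 2 had a bound and 2 had no fold.

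**Figure D1:**
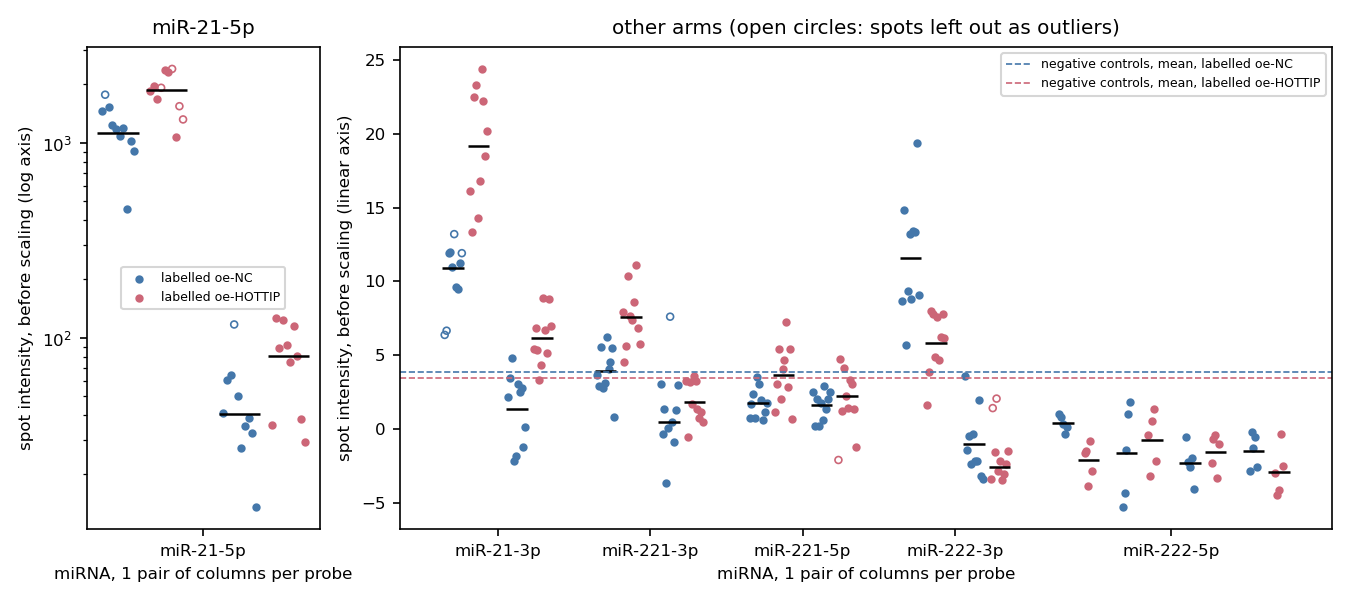
Intensity of every spot of each probe of the 6 members before scaling, on a log axis for miR-21-5p and a linear axis for the other arms, with horizontal bars at the mean of the spots used, open circles for spots left out as outliers, and dashed lines at the mean of the negative control spots. The brighter probe of miR-21-5p lies far above the negative controls. Its dimmer probe lies lower, with spots down to 13.5 on the oe-NC-labelled array. The spots of the other arms reach at most 24.4 (miR-21-3p on the oe-HOTTIP-labelled array).

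miR-21-5p, the guide strand of the miR-21 hairpin, was read by a bright and a dim probe with 10 spots each. On the oe-NC-labelled array the 9 spots used of the brighter probe had a lowest intensity of 455, a median of 1174 and a highest of 1520.4. On the oe-HOTTIP-labelled array the 6 spots used had a lowest of 1068, a median of 1889 and a highest of 2355. The spots of the oe-HOTTIP-labelled array lay higher before scaling and overlapped those of the other array. The dimmer probe had means of 40.5 ± 16.1 (SD, 9 spots) and 80.4 ± 36.1 (SD, 10 spots), with the same order of the arrays. All 20 spots of miR-21-5p were well above background on both arrays.

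Averaged over both probes, miR-21-5p had an intensity of 577 ± 222.1 (SD, 18 spots) on the oe-NC-labelled array and of 970.0 ± 282 (SD, 16 spots) on the oe-HOTTIP-labelled array. This is a log2 difference of 0.75 before scaling, beside a median of 0.67 over the 261 miRNAs detected on both arrays. Each array was then divided by its 90th percentile over these 261 miRNAs, 279.9 on the oe-NC-labelled array and 439 on the oe-HOTTIP-labelled array, as the methods name a 90th percentile normalization. miR-21-5p stood at 206% of that percentile on the oe-NC-labelled array and at 221% on the oe-HOTTIP-labelled array. The log2 difference after scaling was 0.10 (1.07-fold), with a spread over spots of 0.70 and a standard error from the number of spots of 0.19, both on the log2 scale. The difference was thus smaller than the technical error alone. The brighter probe on its own gave 0.09 and the dimmer 0.34 after scaling, with spreads of 0.55 and 0.87.

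Of the 261 miRNAs, 26 (9.96%) had a smaller absolute log2 difference than miR-21-5p, which by this value was among those that differed least between these arrays. Its standard error of 0.19 exceeds the difference of 0.10, so this rank is not resolved. Its log2 difference depended on how the arrays were scaled. With quantile normalization it was 1.04, past 2-fold, and without scaling 0.75. With the 90th percentile over all miRNAs it was -0.07. The medians over the 261 miRNAs under these settings were -0.12, 0.67 and -0.15 in turn. Stricter detection, which changes the miRNAs behind the percentile, also moved the miR-21-5p difference. It was 0.60 with over 50% of the spots well above background and 0.43 at 3 SD over the negative control spots. The medians over miRNAs detected on both arrays were then 0.49 and 0.31.

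miR-21-3p, the passenger strand, was detected on both arrays but close to the limit. Its brighter probe gave 10.9 ± 1.11 (SD, 6 spots, with 4 of 10 left out as outliers) on the oe-NC-labelled array and 19.2 ± 3.93 (SD, 10 spots) on the oe-HOTTIP-labelled array. The highest spot used on the oe-NC-labelled array was 12.01 and the lowest on the oe-HOTTIP-labelled array was 13.4, so the spots of this probe did not overlap before scaling. An outlier of the oe-NC-labelled array, at 13.2, lay just under the latter spot. After scaling the spots used of this probe overlapped. The dimmer probe gave 1.38 ± 2.45 and 6.18 ± 1.81 (SD, 10 spots each), and on the oe-NC-labelled array it lay below the mean negative control. Spots well above background numbered 6 of 20 on the oe-NC-labelled array and 10 of 20 on the oe-HOTTIP-labelled array.

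Averaged over its probes, miR-21-3p had an intensity of 6.13 ± 2.08 (SD, 16 spots) and of 12.7 ± 3.06 (SD, 20 spots). The log2 difference after scaling was 0.40 (1.32-fold), with a spread over spots of 0.60 and a standard error of 0.13. It did not reach 2-fold. The probes gave unequal values, 0.17 for the brighter and 1.52 for the dimmer, the latter with a spread of 2.61. Under the background model normexp with an offset of 50 the log2 difference was -0.43, and without scaling it was 1.05. With detection set at over 50% of the spots well above background, miR-21-3p was detected on neither array. At 3 SD over the negative control spots it was detected only on the oe-HOTTIP-labelled array, without a bound. Under these stricter rules of detection it has no measured difference.

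Neither arm of miR-21 was at least 2-fold different after scaling. Among all miRNAs detected on both arrays 39.1% were at least 2-fold different, 18% higher and 21.1% lower on the oe-HOTTIP-labelled array. The median log2 difference of the miR-21 arms was 0.25, beside 0.02 over the 261 miRNAs. Both differences were smaller than their spread over spots, and only that of miR-21-3p was larger than its standard error, which covers the spots of 1 array per group.

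**Figure D2:**
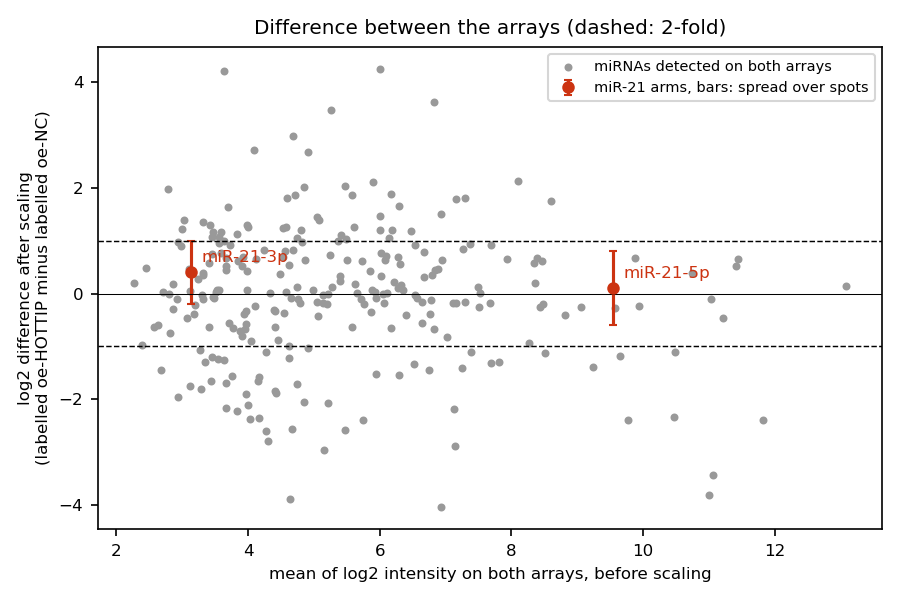
Log2 difference after scaling (oe-HOTTIP-labelled array minus oe-NC-labelled array) against the mean log2 intensity before scaling for the 261 miRNAs detected on both arrays, with the miR-21 arms in red, bars for their spread over spots, and dashed lines at 2-fold. miR-21-5p (0.10) and miR-21-3p (0.40) lie between the dashed lines, at the bright and at the dim end of the plot.

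The arms of miR-21 differed from each other by 0.30 on the log2 scale, the difference of the 3p arm minus that of the 5p arm. Only 7 hairpins had both arms detected on both arrays. Over these the absolute difference between the arms had a median of 1.18, and that of miR-21 was the smallest, close to that of miR-150 (-0.32). The range ran from -1.48 for miR-151a to 6.60 for miR-4485. The sign of the miR-21 value turned with the processing, to -0.79 with quantile normalization, -0.62 with normexp and an offset of 50, -0.23 with normexp without one and -0.61 with the columns of the normalized table exchanged. Both stricter rules of detection gave no value for miR-21, because its 3p arm was then not detected on both arrays. Levels of the arms themselves were not compared, because each arm is read by other probes.

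miR-221-3p, a guide strand, was detected only on the oe-HOTTIP-labelled array. Its brighter probe gave 3.94 ± 1.62 (SD, 10 spots) on the oe-NC-labelled array and 7.59 ± 2.08 (SD, 10 spots) on the oe-HOTTIP-labelled array, and its dimmer probe 0.491 ± 2.06 (SD, 9 spots) and 1.82 ± 1.43 (SD, 10 spots). No spot of either probe was well above background on either array. The spots of the brighter probe overlapped, with a highest of 6.23 on the oe-NC-labelled array and a lowest of 4.53 on the oe-HOTTIP-labelled array.

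Averaged over both probes, miR-221-3p stood at 2.21 ± 1.84 (SD, 19 spots) and 4.70 ± 1.78 (SD, 20 spots), within 1 SD of the mean of the negative controls on each array. A miRNA detected on 1 array only has a lower bound in place of a fold. The bound divides its signal by the higher of 2 values of the other array, the lowest signal of any detected miRNA and what the miRNA itself gave there. For miR-221-3p, whose own signal on the oe-NC-labelled array was the divisor, the value was 1.35-fold higher on the oe-HOTTIP-labelled array, under the 2-fold threshold. It is therefore the ratio of both means and no strict limit. The brighter probe alone gave 1.23-fold, the dimmer 1.19-fold, and all spots with outliers kept 1.17-fold. Without scaling the bound was 2.12-fold. With a higher floor, the signal at which 50% of the miRNAs around it are detected, the bound was under 1 and no fold can be given.

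miR-222-3p, which carries the same seed, was detected only on the oe-NC-labelled array. Its brighter probe gave 11.6 ± 3.98 (SD, 10 spots) there, with 5 of the 10 spots well above background, and 5.86 ± 2.08 (SD, 10 spots) on the oe-HOTTIP-labelled array, with none. The spots ran from 5.69 to 19.4 on the oe-NC-labelled array and from 1.66 to 7.997 on the oe-HOTTIP-labelled array, and thus overlapped. The dimmer probe lay below 0 on average on both arrays, at -0.991 ± 2.26 (SD, 10 spots) and -2.53 ± 0.784 (SD, 8 spots), so that miR-222-3p rests on its brighter probe.

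Averaged over both probes, miR-222-3p stood at 5.30 ± 3.24 (SD, 20 spots) on the oe-NC-labelled array and at 1.66 ± 1.65 (SD, 18 spots) on the oe-HOTTIP-labelled array. By the rule above its bound was at least 3.42-fold lower on the oe-HOTTIP-labelled array. This bound includes the dimmer probe. The brighter probe alone gave 3.10-fold, and taking the brightest probe of every miRNA gave 2.30-fold. The floor of this bound, 2.43 before scaling, lay below the mean negative control of that array, so the value is no strict limit. With the higher floor, 6.44 before scaling, it was 1.29-fold, and with normexp it was 1.84-fold without an offset and 1.54-fold with an offset of 50, all under the threshold. With detection set at over 50% of the spots well above background, or at 3 SD over the negative control spots, miR-222-3p was detected on neither array.

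Of the 4 members detected on either array, 1 (miR-222-3p) was thus at least 2-fold lower and none was at least 2-fold higher with bounds included. Among the 457 miRNAs detected on either array, 25.2% were at least 2-fold lower and 33.9% at least 2-fold higher by the same rule, 59.1% in all. The share of 1 member of 4 called lower is near this background. miR-221-3p and miR-222-3p, whose hairpins are neighbours, were detected on opposite arrays, both near the negative control spots. Detection on 1 array only was common, with 129 of the 457 miRNAs on the oe-HOTTIP-labelled array alone and 67 on the oe-NC-labelled array alone. The difference between miR-221-3p and miR-222-3p was not tested.

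miR-221-5p and miR-222-5p, the passenger strands, were detected on neither array. miR-221-5p stood at 1.69 ± 0.994 (SD, 20 spots) on the oe-NC-labelled array and at 2.96 ± 1.96 (SD, 19 spots) on the oe-HOTTIP-labelled array. miR-222-5p, read by 4 probes, stood at -1.25 ± 1.82 and -1.83 ± 1.52 (SD, 20 spots each). Both lay below the mean negative control of each array, and no spot of either was well above background. The arrays give no fold for them, and a signal below this background was not detectable.

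The authors' normalized table, on a log2 scale with values not detected at a floor near 1e-06, carried miR-221-3p and miR-222-3p in the opposite columns. miR-222-3p was listed at 1.22 in the column of the oe-HOTTIP-labelled array and at the floor in the other, whereas the scanner output detected it on the oe-NC-labelled array. miR-221-3p was listed at 0.0506 in the column of the oe-NC-labelled array and at the floor in the other, again opposite to the scanner output. miR-21-5p was listed at 7.98 in the oe-NC column and at 7.62 in the oe-HOTTIP column, and miR-21-3p at 0.887 and 1.13. With the columns exchanged, miR-21-5p was 0.37 higher and miR-21-3p 0.25 lower in the table's values for the oe-HOTTIP-labelled array. miR-221-5p and miR-222-5p were at the floor in both columns. Of the members, miR-221-3p and miR-222-3p thus appear under opposite names in table and scanner output. By name alone, miR-21-3p was higher under oe-HOTTIP in both, and miR-21-5p was lower under it in the table only. By the correlations that follow, each column goes with the opposite array. Values under the same name are then from different arrays, also for the miR-21 arms. Over miRNAs the oe-NC column had a Spearman rho of 1 with the oe-HOTTIP-labelled array and of 0.77 with the oe-NC-labelled array (261 miRNAs), and the oe-HOTTIP column of 1 with the oe-NC-labelled array and of 0.76 with the other (258 miRNAs). These correlations are across miRNAs, which are no replicates. The files do not settle which names are right.

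**Figure D3:**
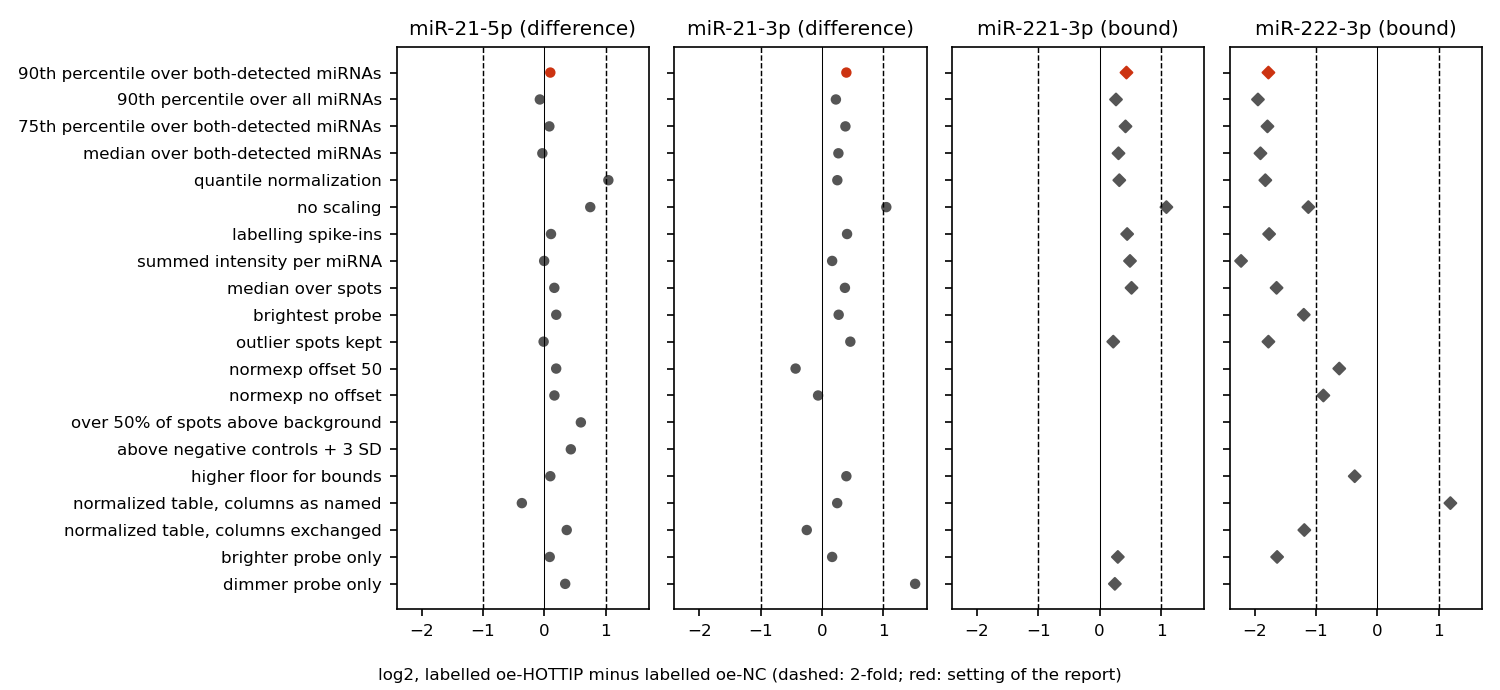
Log2 difference (circles, miR-21-5p and miR-21-3p) or lower bound (diamonds, miR-221-3p and miR-222-3p) between the arrays under each way of processing, with the setting of the report in red, dashed lines at 2-fold and no point where a setting gives no value. miR-21-5p lies between the dashed lines except with quantile normalization (1.04), and miR-222-3p lies past the lower line with the setting of the report, between the lines with normexp and with the higher floor, and past the upper line with the column names of the normalized table.

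The 3 miRNAs nearest to miR-21-5p in log2 difference were let-7c-5p (0.10), miR-20a-5p (0.12) and miR-3656 (0.07), at distances of 0.005, 0.022 and 0.023 on the log2 scale. With 2 arrays this likeness is over a single difference. miR-221-3p and miR-222-3p have no difference to be matched.

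Of 20 other miRNAs often described as oncogenic in carcinomas, both arrays detected 13, the oe-HOTTIP-labelled array alone 3 and neither array 4. Of the 13, 1 was at least 2-fold lower, none was at least 2-fold higher and the others lay between, with a median log2 difference of 0.02. Over all 261 miRNAs detected on both arrays 21.1% were lower and 18% higher, and the median was also 0.02. The lower one was miR-92a-3p, at -1.52 with a spread of 0.27, and the highest value was that of miR-19a-3p, 0.61 with a spread of 0.69. The inflammatory miR-155-5p was detected on neither array. The bounds of miR-183-5p and miR-10b-5p, 1.75-fold and 1.33-fold higher on the oe-HOTTIP-labelled array, were under 2-fold, and miR-96-5p had none.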

How the data were processed

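Exosomal RNA of FaDu cells was measured on 1 Agilent one-colour miRNA array per group. The authors deposited the scanner output, with a background-subtracted intensity and quality flags per spot, and a table of normalized log2 values. The methods name a 90th percentile normalization in GeneSpring. Such a step shifts all log2 values of an array by a single constant. The miR-21 arms do not show this between scanner output and table, and which step gave the table was not tested. Agilent Feature Extraction is given as version 10.10 in the submitters' processing notes and 11.5.1.1 in the scanner output. Groups follow titles and treatments.

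Outlier spots were left out, means were taken over the spots of a probe and then over the probes of a miRNA, and the 90th percentile of the 261 miRNAs detected on both arrays set the scale of each array. The SD over spots was pooled within probes. The spread of a log2 difference is the root of the summed squared relative SDs of both arrays, on the log2 scale. The 2-fold threshold is that of the methods, which also name a corrected p-value that was not applied here. With 1 array per group there was no test, and precision is limited by how few arrays there were. The summary was tested on simulated arrays in which the same miRNAs counted as detected on both. That test covers differences and not the bounds, the floor or detection on 1 array only.

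The members, the gene lists and the alternatives were chosen with earlier results of these data known. The miRNAs named are the members, those sharing a seed with them, the 3 nearest to miR-21-5p in log2 difference, the extremes of a list of 20 oncogenic miRNAs, and cell type markers. miR-155-5p, miR-183-5p, miR-10b-5p and miR-96-5p of that list, and miR-150, miR-151a and miR-4485 of the hairpins, were named after their values were seen. Alternatives covered the scaling, background correction (normexp on median spot intensity, limma 3.58.1 in R 4.3.3), detection, probes, outliers, floor and the normalized table. Other steps ran in Python 3.11.15 with pandas 2.3.3 and numpy 2.4.6.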

Additional observations from a re-analysis of the deposited data

How the results depend on the processing

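Spots measure technical error only, and no setting has a replicate check. No paired analysis was possible because there was only 1 array for each group.

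miR-21-5p ranged from -0.07 to 1.04 on the log2 scale over 18 alternatives, leaving aside the table with its columns as named, and passed 2-fold only with quantile normalization (1.04). miR-21-3p moved beyond the spread over spots without scaling (1.05), with normexp and an offset of 50 (-0.43), with the table's columns exchanged (-0.25) and from the dimmer probe alone (1.52), and the cause was not tested. Normexp without an offset gave -0.06, and both stricter rules of detection left miR-21-3p without a difference. The median of both arms was 0.90 without scaling. Without scaling 2 members (miR-21-3p and miR-221-3p) were at least 2-fold higher, and with quantile normalization 1 (miR-21-5p), in place of 0. With the table's columns as named 1 (miR-222-3p) was higher and 0 were lower, since those columns carry the opposite arrays, and the bound of miR-222-3p reversed there to 1.19 on the log2 scale. The count of 1 member at least 2-fold lower was 0 with normexp with and without an offset, with both stricter rules of detection and with the higher floor. The other bounds ran from 1.17-fold to 2.12-fold for miR-221-3p and from 1.29-fold to 4.66-fold for miR-222-3p. No bound could be given for miR-221-3p with the brightest probe, normexp, the higher floor, the table or the stricter rules of detection, nor for miR-222-3p with those rules or from its dimmer probe.

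Over all 457 miRNAs detected on either array, with bounds included, 155 were higher and 115 lower. Of the same 457, these counts were 223 and 63 without scaling. They were 8 and 26 with normexp and an offset of 50, and 53 and 84 without an offset. With the higher floor they were 86 and 88, and with the brightest probe 95 and 89. Other settings changed the total. Detection on over 50% of the spots gave 86 and 33 of 277, and detection at 3 SD 67 and 40 of 337. The table as named gave 104 and 82 of 445.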
